A study of Drosophila melanogaster with 3 samples.

Results

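Homeobox genes encode transcription factors that bind DNA through a homeodomain, a compact fold whose recognition helix reads short AT-rich sites, often with the core TAATTA. In the fly embryo the Hox genes of this family set segment identity along the body, and the homeobox genes outside those clusters lay down segments, divide the neuroectoderm into columns, start eye and head formation and give neurons and muscles their identities. Many are known for long introns and large intergenic stretches that hold enhancers. NfI, the protein profiled here, belongs to the nuclear factor I proteins, which in vertebrates act in the late development of nervous system and muscle and bind a palindrome of the arms TTGGC and GCCAA.

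The genes described are 49 listed homeobox genes, of 13945 protein-coding genes on the major arms, 4 and X included, and the listed symbols of all 49 were found in the annotation. Against their description as lying outside Hox clusters, 2 of them, ftz and zen, lie between lab and Antp, inside the Antennapedia complex. NfI binding had been measured by chromatin immunoprecipitation sequencing (ChIP-seq) in whole embryos collected at 12 to 24 h, both sexes together, from the transgenic line NfI-GFP, in which green fluorescent protein is fused to the C terminus of NfI. There was 1 group, with biological replicates 2, 3 and 4, so no treatment or genotype could be compared. The labels are at odds on 2 counts. The description calls each library an input control, whereas assay title and antibody name NfI ChIP-seq, and the libraries were taken as immunoprecipitates. A separate age label gives a number of hours far beyond embryonic life, and the 12 to 24 h printed here rest on the source name. Whole embryos hold many cell types, and binding in few cells cannot be told apart from weak binding in many. No test was run on the listed genes, since there is a single group and the genes were chosen by name, so their counts stand beside the same counts over protein-coding genes.

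A summit is the position of the highest signal in a peak. The optimal list, which the authors made with a threshold on the irreproducible discovery rate (IDR), a measure of how peak ranks repeat, held 5806 summits. Its peaks need not repeat in every replicate. Of them, 55.3% were among the 5806 strongest peaks of all 3 replicates, and 40 were among those of none. Each gene was given a window of its gene body plus 10 kb on each side. A summit within 500 bp of an annotated transcription start site (TSS) of any gene was called a promoter summit, and the remainder distal. Signal is the authors' value for a peak, on an unstated scale. Relative signal is that value divided by the median of the 5806 strongest peaks of the same replicate. For replicates 2, 3 and 4 that median was 147, 82.9 and 82.4.

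The windows held 52 distinct NfI summits, and none lay in more than 1 window. Sequences at strong promoter and distal summits are shown first, with those at the genes' own promoters, because these stretches carry the positions on which the account rests. Each is the plus strand of the RefSeq copy of the dm6 genome, read 100 bp to each side of the summit unless stated. Capitals mark letters of the searched motifs, on either strand, and the motifs are described further on. The strongest summit of the windows lay upstream of Six4 beside the start of tzn (chr3L:20798492-20798644, printed up to the 5' UTR of tzn), and another strong one lay downstream of tup at the promoter of CG10602 (chr2L:18857697-18857897). Strong distal summits lay in an intron of zfh1 (chr3R:30781705-30781905), upstream of zfh2 (chr4:497810-498010) and in an intron of hth (chr3R:10597686-10597886).
Six4 window, tzn promoter: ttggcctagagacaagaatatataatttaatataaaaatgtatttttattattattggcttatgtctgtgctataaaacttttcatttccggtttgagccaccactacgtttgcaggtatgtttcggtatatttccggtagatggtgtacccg
tup window, CG10602 promoter: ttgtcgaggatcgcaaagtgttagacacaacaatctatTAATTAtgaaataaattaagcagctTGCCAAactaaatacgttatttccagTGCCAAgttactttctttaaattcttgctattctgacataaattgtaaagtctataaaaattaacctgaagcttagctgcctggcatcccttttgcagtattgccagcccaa
zfh1 intron: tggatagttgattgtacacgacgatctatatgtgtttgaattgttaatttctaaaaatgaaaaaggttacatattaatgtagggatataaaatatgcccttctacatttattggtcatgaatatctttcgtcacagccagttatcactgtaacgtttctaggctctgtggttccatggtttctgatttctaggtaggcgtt
zfh2 upstream: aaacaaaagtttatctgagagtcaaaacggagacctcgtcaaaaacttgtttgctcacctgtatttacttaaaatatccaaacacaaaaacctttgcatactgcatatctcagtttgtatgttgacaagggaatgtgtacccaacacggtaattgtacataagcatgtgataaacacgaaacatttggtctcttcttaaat
hth intron: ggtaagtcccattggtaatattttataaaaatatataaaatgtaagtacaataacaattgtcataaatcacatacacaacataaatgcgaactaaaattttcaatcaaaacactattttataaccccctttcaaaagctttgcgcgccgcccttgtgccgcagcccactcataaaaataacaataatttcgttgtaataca

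The own promoters of eyg (chr3L:12468079-12468279), cad (chr2L:20770468-20770668) and H2.0 (chr2L:6019527-6019727) each held a summit, and their windows follow.
eyg own promoter: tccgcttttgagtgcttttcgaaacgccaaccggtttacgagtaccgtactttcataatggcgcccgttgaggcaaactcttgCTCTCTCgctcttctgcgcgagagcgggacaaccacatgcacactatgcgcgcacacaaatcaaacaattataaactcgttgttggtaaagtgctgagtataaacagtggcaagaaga
cad own promoter: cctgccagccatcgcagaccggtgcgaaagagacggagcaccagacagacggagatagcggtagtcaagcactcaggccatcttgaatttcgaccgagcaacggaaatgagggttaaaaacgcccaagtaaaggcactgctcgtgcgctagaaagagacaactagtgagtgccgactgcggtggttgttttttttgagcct
H2.0 own promoter: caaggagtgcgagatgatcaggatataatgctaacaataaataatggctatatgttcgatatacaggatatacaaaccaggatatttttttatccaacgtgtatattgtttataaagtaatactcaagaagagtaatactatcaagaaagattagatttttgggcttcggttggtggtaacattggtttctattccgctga

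Among the 49 homeobox genes, 29 had an optimal summit in the window, a share of 59.2% (exact 95% binomial interval 44.2 to 73.0). The background was 69.3% of protein-coding genes. The listed genes are long, with a median of 11.9 kb against 2.17 kb for protein-coding genes, and a long window holds more summits by length alone. Of the 1668 protein-coding genes at least as long as the median listed gene, 79.5% had a summit in the window. The 49 also include genes shorter than that median, so this background is not matched to them in length. The homeobox genes were below both backgrounds, with the first inside the interval and the second outside it.

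The share was farthest below its background at the genes' own promoters. Of the 49, 4 had a summit within 500 bp of their own TSS, a share of 8.16% (2.27 to 19.6), against 26.1% of protein-coding genes and 35.8% of the long ones. These 4 were eyg, so, cad and H2.0. A distal summit was found at 18 of the 49, or 36.7% (23.4 to 51.7), against 31.7% of protein-coding genes, which is near that background, and against 57.9% of the long ones. The median distance from a gene's own TSS to the nearest summit was 8.14 kb for the homeobox genes and 4.92 kb for protein-coding genes.

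Of the 52 summits, 19 were promoter summits and 33 distal, so the promoter share was 36.5% (23.6 to 51.0), beside 53.6% of all 5806. Only 4 of the 19 promoter summits lay at the listed gene itself. Another 14 lay at the TSS of other protein-coding genes in the window, and the remaining summit, downstream of Six4, lay at the antisense transcript asRNA:CR46484. Of the 87 other protein-coding genes with a TSS in these windows, 17 had a summit at their own TSS, or 19.5% (11.8 to 29.4). Neighbours and homeobox genes were thus both below 26.1%, and the interval of the neighbours includes that value.

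Summits were sparser in these windows than over the arms, with 2.86 against 4.34 per 100 kb. The larger difference was near start sites. Within 500 bp of a TSS, the windows had 9.97 promoter summits per 100 kb against 17.1, whereas outside these stretches they had 2.03 distal summits per 100 kb against 2.33. Bases within 500 bp of a TSS made up 10.5% of the windows and 13.6% of the arms.

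**Figure D1:**
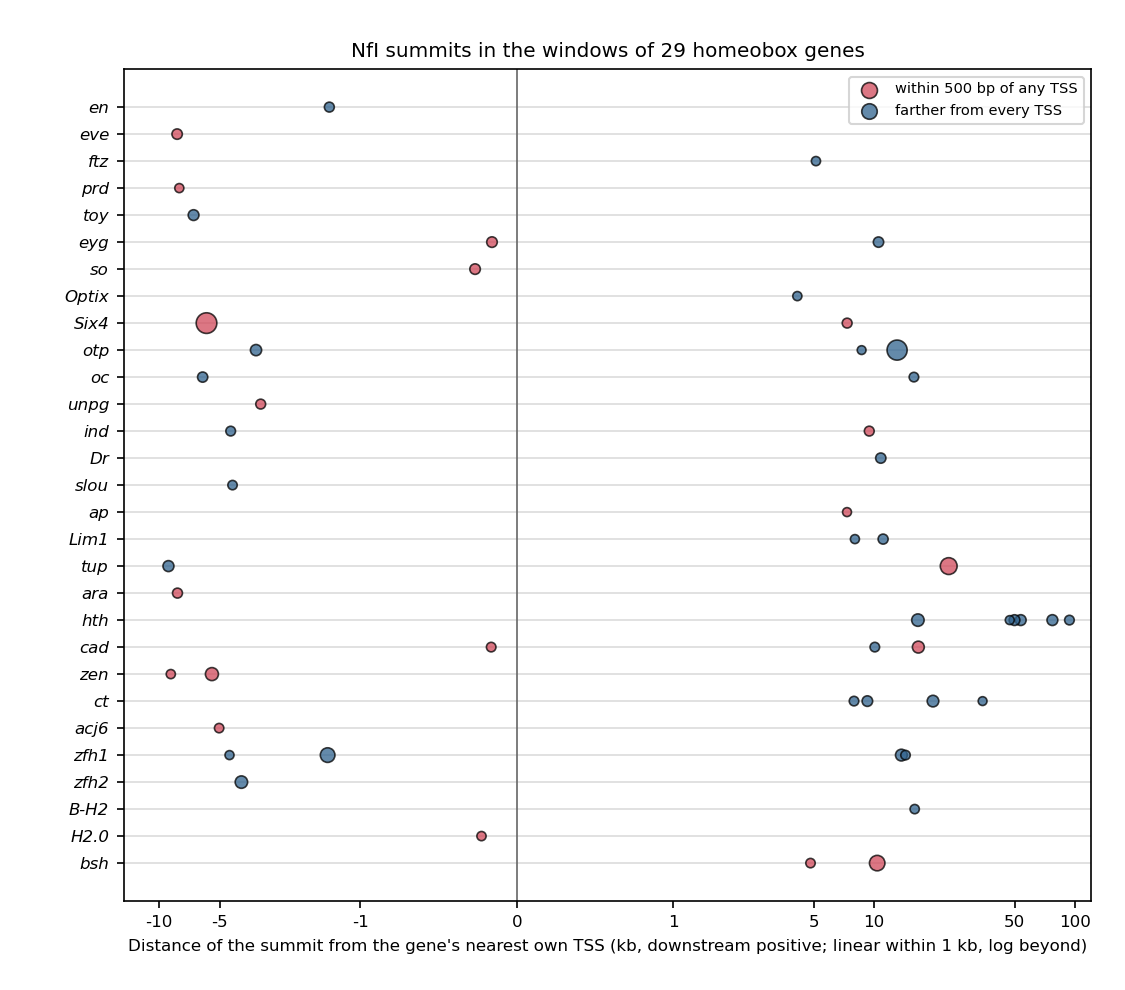
Positions of the 52 optimal summits relative to the nearest own TSS of each of the 29 homeobox genes that had one (x axis in kb, linear within 1 kb of the TSS and logarithmic beyond). Point area rises with the mean relative signal, red points are promoter summits of any gene and blue points distal summits. The 4 red points next to 0 are the own promoters of eyg, so, cad and H2.0, and the blue points far to the right are the introns of hth and ct.

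Distal summits lay in introns in 18 cases, in intergenic sequence in 14 and in a coding exon in 1. By position, 16 of the 33 lay inside the gene body, 9 upstream and 8 downstream of it. For 20 of the 33 the nearest annotated TSS of any gene was that of the homeobox gene. The promoter summits were 12 upstream and 7 downstream of the homeobox gene, with 0 inside its body, though some lay in introns or 5' UTRs of other genes. Most genes with a summit had few: 16 had 1, 8 had 2, and 5 had more. Of the distal summits, 14 of 33 lay in the windows of hth, ct and zfh1.

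The genes are taken below in role groups of 6 to 17, whose counts stand beside the 69.3% of protein-coding genes with a summit in the window and are descriptions of small groups. Genes of segmentation and the body axis had a summit in 6 of 9 cases, with 6 promoter and 3 distal summits. Of these, cad (FBgn0000251), which specifies the posterior body and later the gut, had 3. At its own promoter, 163 bp upstream of the TSS, replicates 2, 3 and 4 had relative signals of 0.474, 0.796 and 1.08, a mean of 0.782 ± 0.301 (SD, n = 3). The replicates lay on both sides of 1, the median of the strongest peaks.

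The strongest of the 3 summits at cad lay past its end at the promoter of Pomp, which encodes a proteasome maturation factor. Relative signal there was 1.22, 1.68 and 1.93 in replicates 2, 3 and 4 (1.61 ± 0.363, n = 3). The other summit at cad, in an intron, was at 0.788 ± 0.0567 (n = 3). Replicate 2 was lowest at each of these positions.

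The window of zen (FBgn0004053), which specifies the dorsal amnioserosa, held 2 summits, both at promoters of other genes. The stronger was 194 bp from the TSS of bcd, the anterior morphogen gene, at 1.34, 1.74 and 3.11 in replicates 2, 3 and 4 (2.07 ± 0.928, n = 3). It lay 5466 bp upstream of zen. The other lay at Ama, which encodes a cell adhesion protein, and had 0.670 ± 0.170 (n = 3). Replicate 4 was high at the bcd promoter and lowest at Ama.

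The segment polarity gene en had 1 distal summit 1425 bp upstream, in a stretch known for Polycomb response elements. Replicate 3 had 0.968 and replicate 4 had 0.832, while replicate 2 had no overlapping peak. Its adjacent paralogue inv had none. The pair-rule genes eve, ftz and prd had 1 summit each. That near eve lay 36 bp from the TSS of CG12134 and was matched in replicate 2 alone, at 1.06. That near prd lay 6 bp from the TSS of Pex19, which acts in peroxisome assembly, at 0.646 ± 0.0342 (n = 2, replicates 3 and 4). The ftz summit was distal, 5132 bp from the TSS, at 0.670 ± 0.0853 (n = 2, replicates 3 and 4). The Pax genes gsb and gsb-n, which act in segment polarity and in the nerve cord, had none.

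Genes of the eye, head and brain also had a summit in 6 of 9 cases, beside the 69.3%, with 2 promoter and 8 distal summits. Both promoter summits were the genes' own. The sine oculis gene so (FBgn0003460), needed for the visual system, had relative signals of 1.05, 1.03 and 1.26 in replicates 2, 3 and 4 at 266 bp upstream of its TSS (1.11 ± 0.127, n = 3). At eyg (FBgn0000625), a Pax gene of eye growth, the summit 158 bp upstream had 1.02 in replicate 3 and 1.23 in replicate 4 (1.12 ± 0.144, n = 2), with no peak in replicate 2. The promoter of so was therefore matched in each replicate and that of eyg in 2.

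The strongest distal summit of the windows, and the second strongest of any kind, lay in a coding exon of otp (FBgn0015524), a gene of brain and hindgut development. The peak (2R:20884431-20884770, dm6) was 12995 bp from the otp TSS, and the nearest TSS of any gene was 4659 bp away. Relative signal was 4.64, 5.53 and 7.63 in replicates 2, 3 and 4 (5.93 ± 1.54, n = 3), above 4 in each. Distal summits in coding exons were rare over the genome, 14 of 2696. The other summits at otp were weaker, one upstream at 0.900 and 1.79 in replicates 3 and 4, and one in an intron at 0.555 ± 0.00562 (n = 2), with no peak in replicate 2 at either.

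The head gap gene oc had a summit on each side, at 0.999 ± 0.306 upstream and 0.784 ± 0.459 downstream (n = 3 each). The Pax6 gene toy had 1 summit 6744 bp upstream, at 0.984 and 1.39 in replicates 2 and 3, with no replicate 4 peak. Optix, a relative of so active in the eye field, had 1 distal summit at 0.661 ± 0.0254 (n = 2, replicates 3 and 4), and eyg had a second, distal one downstream at 1.05 ± 0.310 (n = 3). The Pax6 gene ey, the eyg paralogue toe and the head gap gene ems had none.

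Among genes of the nerve cord and of neuron identity, 10 of 17 had a summit, beside the 69.3%, with 7 promoter and 7 distal summits, and none of the 7 promoter summits lay at a listed gene's own TSS. The strongest was downstream of tup (FBgn0003896), a LIM-homeodomain gene of motor neurons and heart, at the promoter of CG10602. Its relative signal was 3.32, 4.44 and 4.06 in replicates 2, 3 and 4 (3.94 ± 0.567, n = 3). The distal summit 8991 bp upstream of tup was weaker and uneven, at 0.558, 1.41 and 1.83.

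Downstream of bsh (FBgn0000529), a gene of brain and medulla neurons, a summit at the starts of CG10628 and the dihydrouridine synthase gene Dus3 had 2.80, 3.32 and 3.53 in replicates 2, 3 and 4 (3.22 ± 0.377, n = 3). The second summit near bsh lay at the promoter of fbp, which encodes fructose-1,6-bisphosphatase, at 0.735 ± 0.205 (n = 3). The zinc finger and homeodomain gene zfh2 (FBgn0004607), active in the nerve cord, had a distal summit 3900 bp upstream at 1.70 in replicate 2 and 1.96 in replicate 3. Replicate 4 had no peak there.

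The genes zfh2 and toy lie on chromosome 4, as do ey and onecut, and the replicates differed on that chromosome. Replicate 2 listed 310 peaks on it, replicate 3 listed 98 and replicate 4 listed 7. Replicate 4 lacked a peak at both summits beside that low count, and the part of the count in this was not tested.

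The columnar gene ind, which marks the intermediate column of the neural precursors, had 2 summits at 0.870 ± 0.339 and 0.827 ± 0.410 (n = 2 each), the first at the promoter of Sytbeta, a synaptotagmin gene. Dr, which marks the dorsal column, had 1 distal summit at 1.02 ± 0.312 (n = 3). The LIM-homeodomain gene Lim1 had 2 intronic summits, at 0.944 ± 0.566 and 0.630 ± 0.351 (n = 3 each), where replicate 2 was at 0.308 and 0.276. The LIM-homeodomain gene ap had 1 summit at the promoter of vlc, at 0.600 ± 0.169 (n = 3).

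The nerve cord gene unpg had a summit at the shared promoter of CG45085 and CG8026, at 0.882 ± 0.0991 (n = 3). The POU gene acj6, which acts in olfactory neurons, had one at CG9164 at 0.730 ± 0.331 (n = 3), and the BarH gene B-H2 a distal one at 0.702 ± 0.143 (n = 3). No summit lay in the windows of vnd, of the ventral column, of Lim3 and exex, which act in motor neurons, of onecut, of the POU genes pdm2 and nub, which act in neuroblast timing, or of B-H1. Of the 17 genes, 6 had a distal summit, beside 31.7% of protein-coding genes.

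Genes of mesoderm and muscle had a summit in 4 of 6 cases, beside the 69.3%, with 3 promoter and 5 distal summits. The strongest summit of the 52 lay 5815 bp upstream of Six4 (FBgn0027364), a gene of mesoderm and gonad, at the starts of tzn and CG3698. Relative signal was 3.23, 6.13 and 9.52 in replicates 2, 3 and 4 (6.29 ± 3.15, n = 3). It was the highest of the 52 in replicates 3 and 4, whereas in replicate 2 the summits at otp and at CG10602 were higher. The second Six4 summit, at asRNA:CR46484, had 0.877 ± 0.279 (n = 2).

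Of the 5 distal summits, 4 were in the window of zfh1 (FBgn0004606), a zinc finger and homeodomain repressor gene of muscle, heart and gonad precursors. The strongest lay in its intron, 1453 bp upstream of the nearer zfh1 TSS, at 2.22, 3.22 and 2.99 in replicates 2, 3 and 4 (2.81 ± 0.525, n = 3). It also overlaps the antisense gene asRNA:CR45189. A pair of summits 662 bp apart lay downstream, in an intron of the Hippo pathway kinase gene wts. The stronger of that pair had 1.30, 1.52 and 1.85 (1.56 ± 0.278, n = 3), and the weaker 0.758 ± 0.211 (n = 3). The fourth, 4469 bp upstream, had 0.626 ± 0.0805 (n = 3).

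H2.0 (FBgn0001170), a gene of the visceral mesoderm, had 1 summit, 225 bp upstream of its TSS. Relative signal was 0.670, 0.793 and 0.595 in replicates 2, 3 and 4 (0.686 ± 0.100, n = 3), below 1 in each. The muscle identity gene slou had 1 distal summit at 0.732 ± 0.130 (n = 2, replicates 3 and 4). The ladybird genes lbe and lbl, which act in muscle and heart identity, had none.

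Among genes of body wall, appendages and Hox cofactors, 3 of 8 had a summit, beside the 69.3%, and 10 of their 11 summits were distal. The Hox cofactor gene hth (FBgn0001235), which is 132 kb long, held 6, the most of any listed gene, and each lay in an intron. The strongest, 16490 bp from a TSS, had 1.65, 2.06 and 1.77 in replicates 2, 3 and 4 (1.83 ± 0.209, n = 3). The remaining 5 had means of 0.601 to 1.22. Per length, hth had 3.95 summits per 100 kb of window, below the 4.34 of the arms, which counts promoter and distal summits together. All hth summits were distal, and their density was above the 2.33 distal summits per 100 kb of the arms outside promoter stretches.

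The cut gene ct (FBgn0004198), which acts in external sensory organs and Malpighian tubules, had 4 intronic summits. The strongest, 19599 bp from a TSS, had 0.894, 1.62 and 1.99 in replicates 2, 3 and 4 (1.50 ± 0.557, n = 3). The weaker 3 had means of 0.562 to 1.12. With 4.42 summits per 100 kb, the ct window was close to the 4.34 of the arms for both kinds of summit. All ct summits were distal, and their density was above the 2.33 distal summits per 100 kb of the arms.

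The Iroquois gene ara had 1 summit, 22 bp from the TSS of sowah, at 0.913 ± 0.262 (n = 3), and its relatives caup and mirr had none. No summit lay in the windows of exd, which encodes the partner of the hth product, of Dll, which starts limb development, or of al, which acts at appendage tips.

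**Figure D2:**
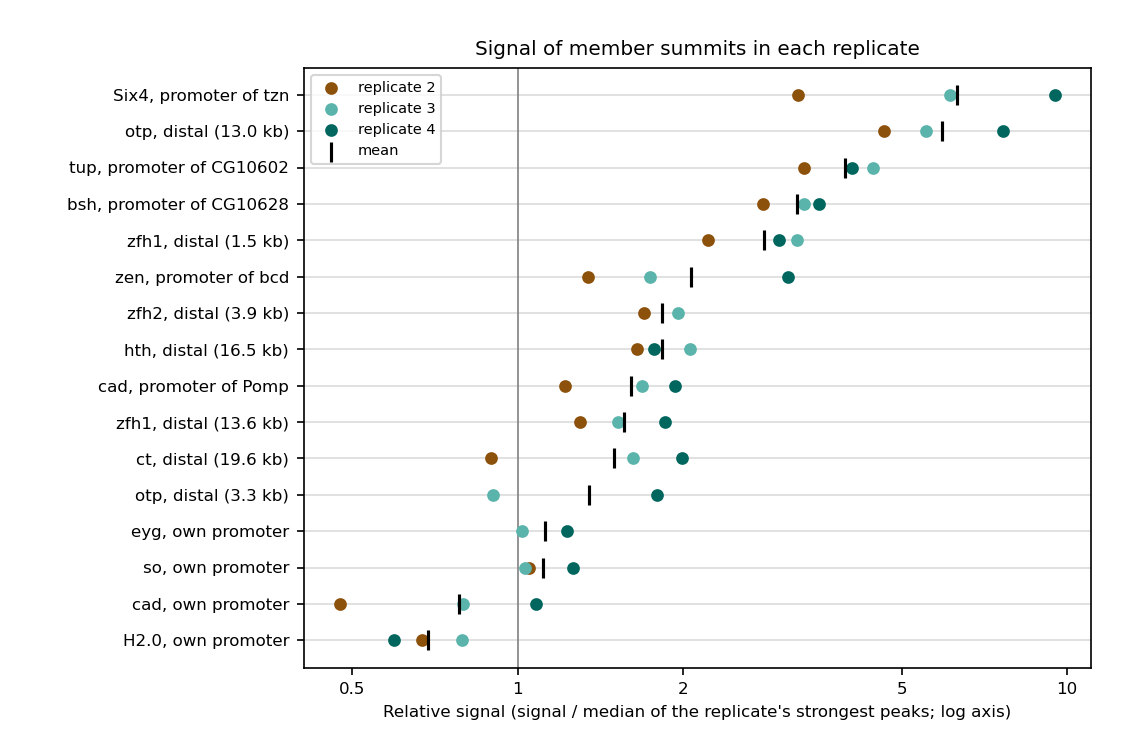
Relative signal (log axis) of the 12 strongest summits of the windows and of the 4 own promoters, in replicates 2, 3 and 4, with the mean as a bar. The own promoters lie between 0.474 and 1.26, and 5 summits have a mean above 2.5, from the zfh1 intron at 2.81 to the tzn promoter at 6.29.

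Over the summits of each kind in the windows, the median of the mean relative signal was 0.882 for 19 promoter and 0.944 for 33 distal summits, against 1.08 and 0.974 over all optimal summits of that kind.

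Below the optimal threshold the counts at own promoters differed. The pooled list made from all 3 replicates holds 30000 peaks and includes background by design. In it, 31 of the 49 homeobox genes had a peak at their own TSS, or 63.3%, against a background of 50.3%. Of these 31, 4 were among the 5806 strongest peaks, or 12.9%, whereas 52.0% of the protein-coding genes with such a peak were. The counts among the strongest pooled peaks, 4 and 3643 genes, are those of the optimal list. The 12.9% and 52.0% thus restate the earlier own-promoter counts over another base. The median best rank of an own-promoter peak was 11603 for homeobox genes and 5508 for protein-coding genes. At a q-value of at most 0.01, 8 of the 49 had an own-promoter peak, or 16.3%, against 33.5%. Beside the 4 optimal ones these were exex, hth, ct and zfh2. By replicate, the same cut gave 20.4% against 44.1% in replicate 2 and 8.16% against 20.6% in replicate 4. In replicate 3 it gave 28.6% against 27.8%, so the homeobox genes were near the background there.

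The replicates were then taken one by one. With all peaks listed, 38.8% of the homeobox genes had an own-promoter peak in replicate 2, and 57.1% in replicates 3 and 4. Protein-coding genes had 54.7%, 47.6% and 43.3% in the same order, so that homeobox genes were below them in replicate 2 and above them in replicates 3 and 4. Among the 5806 strongest peaks, the homeobox genes had 6.12%, 18.4% and 12.2%, a mean of 12.2 ± 6.14% (n = 3). Protein-coding genes had 29.2%, 21.6% and 22.5%, a mean of 24.4 ± 4.15% (n = 3), and were above the homeobox genes in each replicate.

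**Figure D3:**
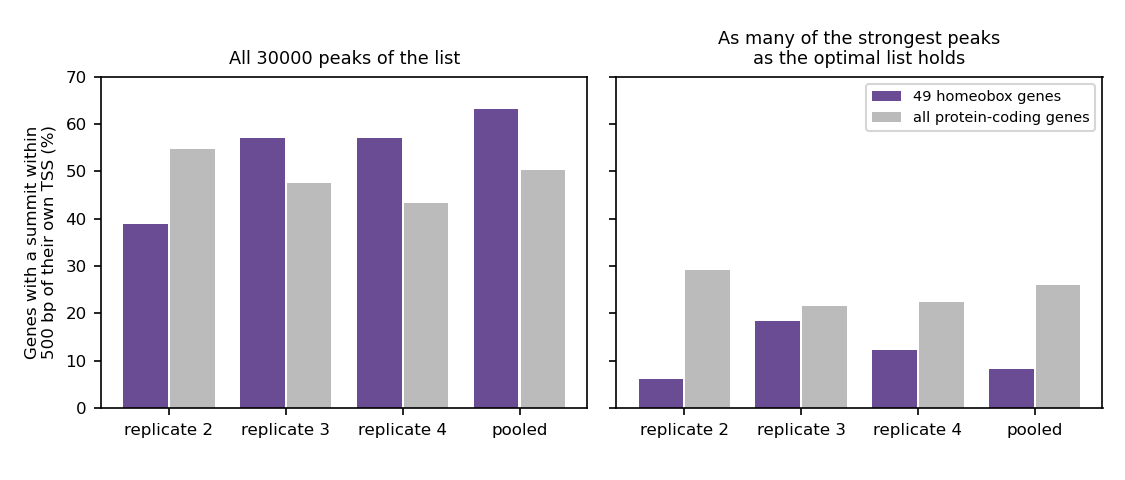
Share of genes (y axis, %) with a peak summit within 500 bp of their own TSS, for the 49 homeobox genes (purple) and all protein-coding genes (grey), in each replicate and in the pooled list. On the left are all peaks of a list, where the homeobox genes are the higher in replicates 3, 4 and the pooled list, and on the right the 5806 strongest, where they are the lower in each. The pooled bars on the right equal the shares in the optimal list.

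Which homeobox promoters were strong also varied. In replicate 2 they were so, ct and H2.0. In replicate 3 they were inv, eyg, so, ems, lbe, cad, Dll, zfh2 and H2.0, and in replicate 4 en, eyg, so, Optix, cad and H2.0. The promoters of so and H2.0 were among the strongest peaks of all 3 replicates, those of eyg and cad of 2, those of 8 genes of 1, and those of 37 genes, or 75.5%, of none. Of protein-coding genes, 15.4% had an own-promoter peak among the strongest of all 3 and 65.6% of none. With all peaks listed, 10 genes, or 20.4%, had an own-promoter peak in all 3 replicates and 11, or 22.4%, in none, beside 30.6% and 32.2% of protein-coding genes.

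The 20 homeobox genes with no optimal summit were not empty of listed peaks. In the pooled list with background, 47 of the 49 had a peak in the window, near the 93.0% of protein-coding genes, and the exceptions were exd and onecut. Replicate 2 had no listed peak in the windows of 9 genes (en, ftz, prd, gsb, ems, lbe, caup, Dll and B-H1), replicate 3 in 0, and replicate 4 in 5 (eve, toy, exd, onecut and zfh2), of which toy, onecut and zfh2 lie on chromosome 4. A listed peak in the window was thus found for 81.6%, 100% and 89.8% of the homeobox genes in replicates 2, 3 and 4. Protein-coding genes had 88.9%, 94.1% and 93.8% in the same order.

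The windows cover 1.36% of the arms. They held 276 of the listed peaks of replicate 2, or 0.920%, 474 of replicate 3, or 1.58%, and 440 of replicate 4, or 1.47%. Of the 5806 strongest, replicate 2 had 40 in the windows, of which 20 were promoter summits. Replicate 3 had 71 with 21 promoter summits, and replicate 4 had 58 with 18. The promoter count hence differed little between replicates (19.7 ± 1.53, n = 3). The distal count differed more (36.7 ± 15.3, n = 3), with 20, 50 and 40 distal summits. Over all 5806 strongest peaks, the promoter share was 60.6%, 45.3% and 46.9% in replicates 2, 3 and 4. It was thus highest in replicate 2 over the whole list as well as in these windows.

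Among the 52 optimal summits of the windows, too, replicates differed more in distal than in promoter counts. Of the 33 distal ones, 16 were among the strongest peaks of replicate 2, 29 of replicate 3 and 28 of replicate 4. Of the 19 promoter ones the numbers were 15, 16 and 14. Of the 23 distal summits with a peak in all 3 replicates, replicate 2 had the lowest relative signal in 20, or 87.0%, against 57.7% of all optimal distal summits with such peaks. Of the 14 promoter summits it was lowest in 6, or 42.9%, against 28.7%. Replicate 2 was thus low at distal summits over the whole list as well as in these windows, and whether the homeobox windows differ from the rest in this was not tested.

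In all, 22 of the 52 summits were among the strongest peaks of all 3 replicates, or 42.3% (28.7 to 56.8), against 55.3% of all 5806. A further 23 were among those of 2 replicates, 6 of 1, and the intronic summit of otp of none.

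**Figure D4:**
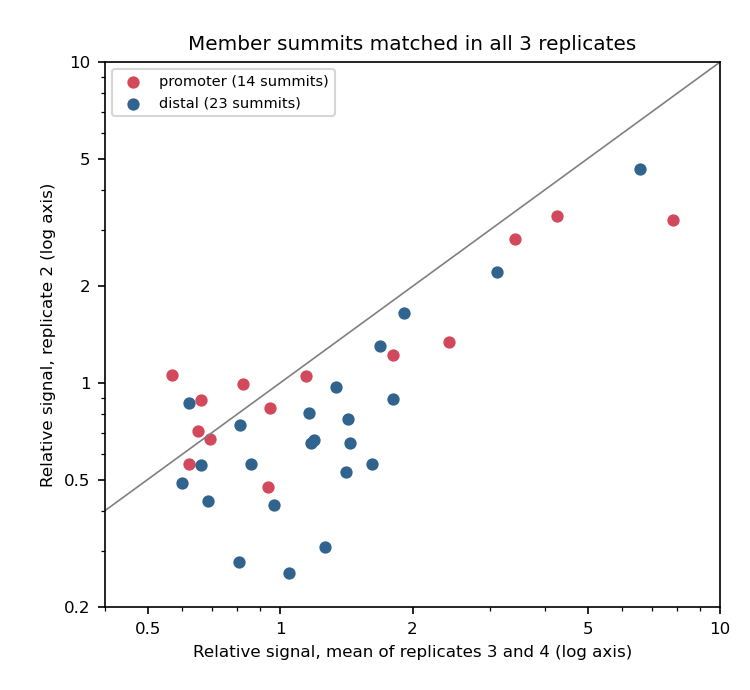
Relative signal in replicate 2 (y axis) against the mean of replicates 3 and 4 (x axis), both logarithmic, for the 14 promoter (red) and 23 distal (blue) summits of the windows with a peak in all 3 replicates. The line marks equal values. Most blue points lie below the line, and red points lie on both sides.

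Sequence at the summits was searched for 7 motifs within 100 bp on each side, on both strands. The homeodomain core TAATTA was found at 7 of 52 summits, or 13.5% (5.59 to 25.8), against 16.4% of all optimal summits. The NFI arm with one further base, TTGGCA, was found at 6, or 11.5% (4.35 to 23.4), against 13.4%. The full NFI palindrome was found at 0 (interval up to 6.85%), against 0.0689% over all summits. TTGGCA includes the arm TTGGC, so both searches can match the same bases. The shares of both short motifs in the windows were near those of all summits.

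Motifs of core promoters and architectural factors gave small counts. TATCGATA, the site of DREF and BEAF-32, was found at 0 of 52 (interval up to 6.85%), against 4.63% of all summits, 8.23% of promoter and 0.482% of distal ones, and 33 of the 52 are distal. GGTCACACT, known as Motif 1, was found at 2, or 3.85%, against 2.34%, and those were the tzn promoter near Six4 and an hth intron. GAGAGAG, bound by GAGA factor, was found at 2, or 3.85%, near the 3.74% of all summits. These lay at the own promoter of eyg and upstream of en, where it matched at 34, 65 and 67 bp from the summit, the last pair overlapping. The E-box CAGCTG was found at 2, or 3.85%, against 10.7% of all summits and 6.79% of distal ones, in an hth intron and near prd.

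In the sequences printed above, the window at CG10602 near tup held TAATTA and a pair of TTGGCA matches, and the eyg promoter held GAGAGAG. The others printed held no match, which says only that these letters are not in these windows, and the Motif 1 match at tzn lies in the part of the window not printed. The median GC content of the summit windows was 36.8%, against 36.3% for all optimal summits.

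Other homeobox genes and partner genes were counted the same way. Of 8 Hox genes, 4 had a summit in the window and 0 at the own TSS (interval up to 36.9%, which includes the 26.1% of protein-coding genes). The 4 of 8 with a summit in the window stand beside 69.3%. A distal summit was found at 4 of 8 (15.7 to 84.3%), beside 31.7%, and 13 of the 16 summits were distal. The strongest was in the abd-A window at 2.51, 2.87 and 6.68 in replicates 2, 3 and 4 (4.02 ± 2.31, n = 3). The next were a distal summit near Antp at 2.06 ± 0.784 (n = 3) and one at the promoter of CG10324 in the Ubx window at 1.77 ± 0.709 (n = 2).

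Of 31 further homeobox genes, 19 had a summit in the window and 5 (ro, NK7.1, tin, bcd and PHDP) at the own TSS. The bcd promoter summit is the one also counted in the window of zen. The window share was 61.3% against 69.3% of protein-coding genes, and the own-TSS share 16.1% (5.45 to 33.7), an interval that includes the 26.1% background. A distal summit was found at 15, or 48.4% (30.2 to 66.9), against 31.7%. The strongest summit in their windows exceeded that of the 49. A distal summit in the C15 window, 548 bp from the TSS of sp3, reached 12.6 ± 4.17, the own promoter of NK7.1 4.48 ± 1.52 and a distal summit near PHDP 2.94 ± 0.734 (n = 3 each). The intervals of the own-promoter shares of these genes and of the 49 overlap.

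Of 6 genes whose proteins partner with products of the 49 (eya, dac, Chi, Ssdp, gro and Bx), 5 had a summit in the window, 3 a distal one, and 1 a summit at its own TSS, beside backgrounds of 69.3%, 31.7% and 26.1%. That was gro, the corepressor recruited by several homeodomain proteins, at 3.05, 5.38 and 5.66 in replicates 2, 3 and 4 (4.70 ± 1.43, n = 3). The next strongest lay in the same window at the promoters of Trmt61 (2.67 ± 0.659) and Cmpk (2.52 ± 0.490). The own promoter of gro thus had a higher relative signal than the homeobox promoters listed in each replicate.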

How the data were processed

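Peak lists of NfI ChIP-seq in 3 biological replicates of 1 group, and of their pool, were analysed. Each replicate list and the pooled list had been derived by the authors from alignments and 1 shared control alignment on dm6, per the file headers, and held 30000 peaks with background, and the optimal list had been derived from them by IDR. Which aligner and caller ran is not given in the sources used here. A peak's signal is the authors' deposited value on an unstated scale. Its significance is the authors' deposited −log10 q-value. With no read counts at hand, library depths are unknown. Intervals cover counting error alone. The labels call the libraries separate biological replicates, and the spread between them is given as SD.

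Positions were read as start plus summit offset, written from 1. Genes and TSSs came from Ensembl release 115, with 5896 TSSs of transposable elements left out, and no peak ended beyond an arm of the reference genome. A replicate peak was matched to an optimal peak by an overlap of at least 1 bp, the strongest being taken. Shares have exact Clopper-Pearson 95% intervals. Backgrounds were counted over 13945 protein-coding genes. Work was done in Python 3.11.15 with numpy 2.4.6, pandas 2.3.3 and scipy 1.17.1. The functions that count and match summits were tested on simulated data, in which planted summits were found again. The motif search was not part of that test.

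Every listed gene is named. Other genes named are those at the 10 strongest summits of the windows or the 3 strongest of each of the 3 comparison lists (Hox genes, other homeobox genes, partner genes). Further genes named at promoter summits of the windows were chosen after their values were seen. Values per replicate are given for the 12 strongest summits and the own promoters. The genes, lists and role groups were chosen with earlier results of these data known. The own-promoter sequences and the counts in the pooled list were added after values were seen. Alternatives were other windows, TSS distances, list lengths, scalings, overlaps and stricter peak sets, as well as fewer replicates.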

Additional observations from a re-analysis of the deposited data

How the results depend on the processing

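In what follows, leaving out a replicate means keeping optimal peaks matched among the strongest peaks of both other replicates, although the optimal list still drew on all 3. With that, genes with a summit in the window ranged from 17 to 23 (29 as reported), genes with a summit at their own TSS from 2 to 4 (4), genes with a distal summit from 9 to 15 (18), and summits from 23 to 38 (52), the lowest values being without replicate 3. Leaving out a replicate or shortening the list can only lower such counts, for any set of genes. The shares of protein-coding genes under those settings are not given here. Among the 2903 strongest optimal peaks the 4 counts were 14, 0, 9 and 21. With gene bodies as windows they were 6 genes, 6 with a distal summit and 16 summits, with a promoter share of 0%, and with 20 kb on each side there were 95 summits. Giving each summit to the gene with the nearest TSS gave 17 genes with a summit, 16 of the 29 and ems, whose summits lie outside its window. Counting any TSS in the window gave 15 genes with a promoter summit. The pooled list with background, chosen after seeing the data, gave 31 genes with an own-promoter peak and 47 with a peak in the window. The share of summits matched in all replicates was 42.3% as reported, 19.2% with the 3000 strongest peaks, 61.5% with 10000 and 71.2% with all peaks, and from 44.2% to 73.1% when a replicate was left out, the highest without replicate 2. Scaled by the median of all peaks of a replicate, the median signals were 3.08 for promoter and 3.04 for distal summits, and as ranks 3577 and 3546. Without 1 replicate the promoter median ranged from 0.881 to 1.06. TTGGCA was found at 3.85% of summits within 50 bp on each side and 26.9% within 200 bp, and GAGAGAG at 0% of the 21 summits of the windows that are among the 2903 strongest optimal peaks. The cause of these changes was not tested beyond their construction. The remaining 51 alternative values of these results stayed within 1.5 times (counts) or within the spread or interval of the reported value. For single summits, a change of scale moved 32 values, since it changes the units. Leaving out a replicate left 48 within the spread. The mean of the values kept cannot fall outside the SD of so few values, so this outcome was fixed in advance. Neither count says how stable a summit's signal is. No paired analysis was possible because there is a single group. Read depth is unknown, so how much of the difference between replicates comes from depth cannot be told apart from binding.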
